A study of Mus musculus with 12 samples.

Results

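The clock output and REV-ERB loop genes are 9 transcription factor genes that lie downstream of the core circadian oscillator, several of which also feed back on it. They were chosen by symbol from 32288 rows of gene counts: Nr1d1, Nr1d2, Dbp, Tef, Hlf, Nfil3, Ciart, Bhlhe40 and Bhlhe41. All 9 had counts and were tested among 18804 genes. Each was followed in subcutaneous tumors of P815 cells, a mouse mastocytoma line, grown in adult DBA/2 mice.

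Every mouse carried 1 tumor, and each of the 4 groups held 3 mice and 3 libraries. P815-IFNG cells carried the light-sensitive transactivator GAVPO under the EF-1α promoter and murine Ifng and Cxcl10 under a 5×UAS promoter. P815-M cells served as the control line, with neither GAVPO nor the cytokine module. Each line was a single-cell clone, so clone, GAVPO and cytokine module cannot be told apart between the lines. The light groups (P815-IFNG light, P815-M light) received blue light in cycles of 12 h light and 12 h dark for 6 days by the sample labels. The dark groups (P815-IFNG dark, P815-M dark) received no blue light. The study's methods give a 12 h light and 12 h dark cycle for the housing of the animals, so dark does not mean constant darkness. Mice of the light groups were housed singly in the illumination cages, and the caging of the dark groups is not described. The part of housing in the values was not tested. The hour at which tumors were taken is not given in the sources used here. Because whole tumors were sequenced, fewer cells of a type and less RNA per cell cannot be told apart.

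In the circadian clock of mammals, the activators CLOCK and BMAL1 bind E-boxes and switch on the Per and Cry genes, whose proteins later shut the activators down. The same E-boxes drive Nr1d1 and Nr1d2, which encode the heme-binding nuclear receptors REV-ERBα and REV-ERBβ. These repress genes with ROR response elements, among them Arntl, which encodes BMAL1, and Nfil3. The PAR bZIP activators DBP, TEF and HLF and the repressor NFIL3 compete for D-boxes in output genes, and CIART, BHLHE40 (DEC1) and BHLHE41 (DEC2) repress transcription at E-boxes.

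The depth of the libraries was uneven. The third replicates of P815-IFNG light and P815-IFNG dark held 41473500 and 42338096 counts, and the other 10 libraries held 2211234 to 2946792. The deep libraries also stood apart in content: mt-Nd6, the mitochondrial coding gene on the other strand from the rest, made up 3.56% and 3.85% of mitochondrial coding counts in them and 29.0% to 47.9% in the others. Among the others the share also differed with light: for P815-M it was 47.9%, 43.7% and 41.5% in light against 29.0%, 36.7% and 31.5% in dark, and for P815-IFNG 40.5% and 43.6% in light against 34.4% and 32.2% in dark. Its part in the values for light against dark was not tested. P815-M had no deep library, so levels are given for the deep pair apart from the rest. Levels are in CPM, counts relative to the size of the library as scaled by the TMM method. Calls come from edgeR's quasi-likelihood test with a term for the deep pair, and a called gene had an adjusted p no higher than 0.05 together with a log2 fold change of 1 or more in either direction.

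The promoters of the members were searched for the letters of clock elements. RefSeq promoter windows of GRCm38.p6, from 250 bases before to 50 after a transcript start, were found for 8 of the 9 members, with none for Bhlhe40. The E-box CACGTG lay in the windows of 3 of these 8 genes (37.5%), Tef, Ciart and Bhlhe41, and in those of 8.09% of 27025 genes. The RORE letters TAGGTCA, read on either strand, were found for 1 member, Nfil3, and for 2.97% of all genes. The D-box letters TTATGTAA or TTATGCAA were found in none of the 8 and in 1.98% of all genes. The windows of Nr1d1, Nr1d2, Dbp and Hlf held no match to any of these letters. Elements outside the windows or with other letters were not searched. A match of letters is a description of the window and no measure of binding. The stretches below are shown because they hold these matches, in capitals, 5′ to 3′ on the strand of the gene.
Tef, second start, chr15:81811254-81811303 (+): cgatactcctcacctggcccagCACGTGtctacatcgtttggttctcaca
Tef, first start, chr15:81802534-81802563 (+): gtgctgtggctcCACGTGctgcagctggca
Ciart, chr3:95882252-95882366 (-): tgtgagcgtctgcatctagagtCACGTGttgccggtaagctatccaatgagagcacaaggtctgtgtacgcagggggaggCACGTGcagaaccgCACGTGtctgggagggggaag
Bhlhe41, chr6:145865559-145865595 (-): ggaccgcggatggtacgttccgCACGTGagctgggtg
Nfil3, chr13:52981040-52981063 (-): ggcgctcggaacTGACCTActaac
The 3 E-boxes of Ciart lay 116, 58 and 44 bases before its start. Each start of Tef had 1 E-box, 127 and 138 bases before it. The E-box of Bhlhe41 lay 153 bases before its start, and the RORE of Nfil3, which reads TGACCTA on the strand of the gene, lay 12 bases before its start. The stretches of Nfil3 and of the first start of Tef lie within exons annotated by GENCODE M21, and the other 3 lie outside exons.

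Per kilobase of exon, Nr1d1 had the highest counts of the members in the 10 shallower libraries, with a median of 38.6 CPM per kb (range 26.8 to 50.8). Nfil3 followed at 18.3 (13.3 to 27.4) and Bhlhe40 at 17.3 (11.1 to 26.2), and the ranges of these neighbours overlapped. Dbp stood at 10.6 CPM per kb and Ciart at 7.57, also with overlapping ranges. Tef (2.76), Hlf (1.20), Nr1d2 (0.91) and Bhlhe41 (0.54) formed the low end. In the deep pair the order differed, with means of 46.5 CPM per kb for Nfil3, 41.7 for Bhlhe40, 10.8 for Dbp and 5.81 for Nr1d1. The member with the highest counts in the shallower libraries was thus the sixth in the deep pair. The strand setting used in counting was not tested, as given below, so the ranks of all members are uncertain as measures of abundance. The exons of Nr1d1 also overlap those of Thra on the other strand.

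**Figure D1:**
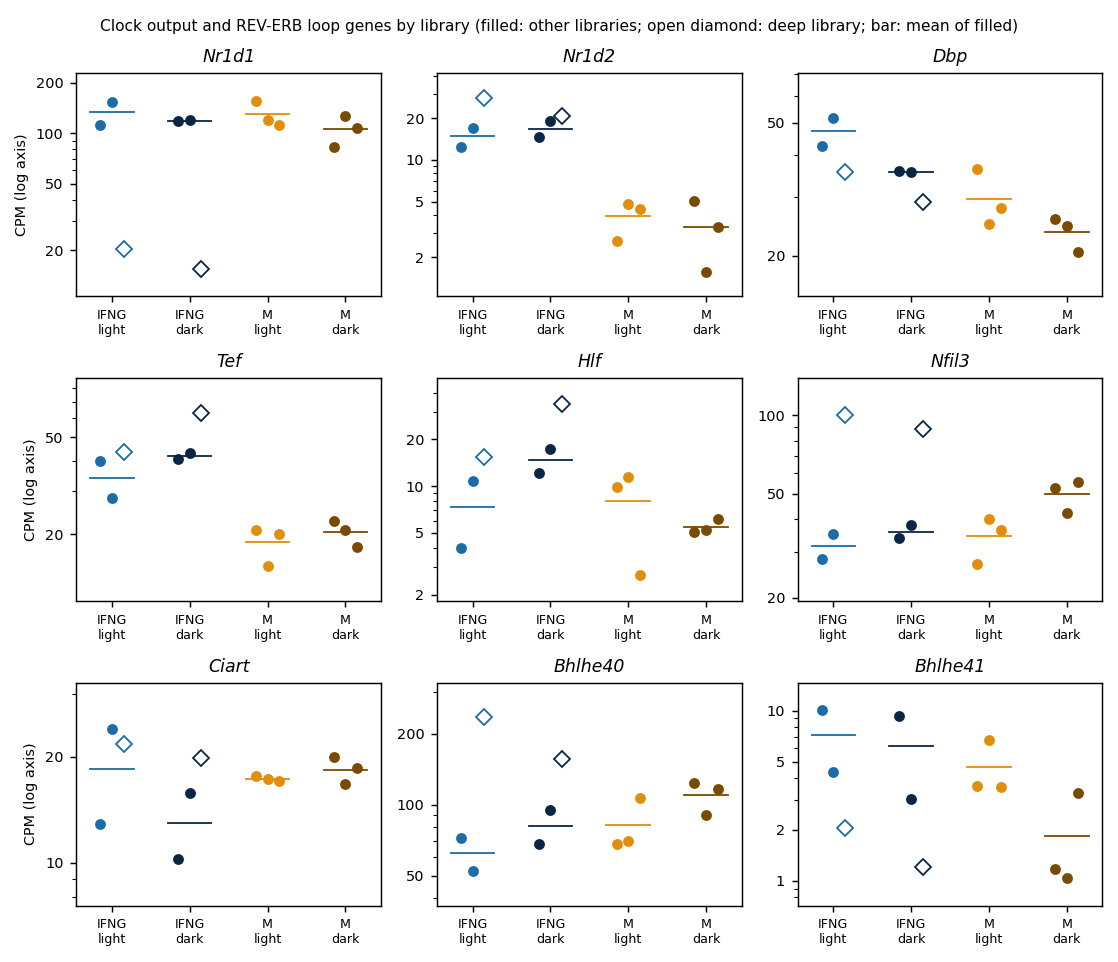
Level of each of the 9 genes in CPM (log axis) in every library, by group; filled points are the 10 shallower libraries, open diamonds the 2 deep ones, and bars the mean of the filled points. Nr1d2 and Tef are higher in every P815-IFNG library than in every P815-M library, and the deep libraries lie apart for Nr1d1, Nfil3 and Bhlhe40.

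The lines were compared first, to ask how the members differ between P815-IFNG and P815-M tumors. Nr1d2 was higher in P815-IFNG tumors than in P815-M tumors in light and in dark, by 4.05-fold and 4.53-fold, and Tef was higher in dark by 2.12-fold. Nr1d1, the paralog of Nr1d2, was not called, with 95% intervals of the fold from 0.787 to 1.42 in light and 0.823 to 1.47 in dark. In light 1 of the 9 members was called, Nr1d2, against a background of 0.436% of all genes, or 0.218% called higher in P815-IFNG. In dark 2 were called, Nr1d2 and Tef, against 1.54% of all genes, or 1.12% called higher. Of all called genes in dark, 210 of 290 were higher in P815-IFNG, and 152 of 252 with the size factors of DESeq2 in place of TMM. No member was called lower. The median log2 fold change of the members was 0.08 in light and 0.62 in dark, beside 0.02 and 0.06 over all genes.

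Nr1d2 encodes REV-ERBβ, at 14:18204054-18239127 of GRCm38 (minus strand). Its level was 12.5, 17.1 and, in the deep library, 28.1 CPM in P815-IFNG light, and 2.60, 4.79 and 4.47 CPM in P815-M light. In dark it was 14.6, 19.1 and, in the deep library, 20.7 CPM in P815-IFNG, and 5.07, 1.56 and 3.29 CPM in P815-M. All 6 P815-IFNG libraries were above all 6 P815-M libraries, the shallower ones as well as the deep pair, which has no P815-M counterpart. The fold was 4.05 in light (95% interval 2.24 to 7.31; log2 2.02 ± 0.41 SE; edgeR adjusted p = 0.0289) and 4.53 in dark (2.55 to 8.06; log2 2.18 ± 0.40; adjusted p = 0.00684). The P815-M values rest on 3 to 13 counts a library. Without the deep pair the log2 fold change was 1.88 in light, no longer called (adjusted p = 0.0952), and 2.28 in dark, still called (adjusted p = 0.0136).

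Tef encodes thyrotroph embryonic factor, one of the PAR bZIP activators, at 15:81802421-81826863 (plus strand). In dark its level was 40.7, 43.2 and, in the deep library, 62.9 CPM in P815-IFNG, and 22.6, 20.8 and 17.7 CPM in P815-M. In light it was 39.8, 28.3 and, in the deep library, 43.5 CPM, against 20.8, 14.8 and 20.1 CPM. The groups did not overlap in light or in dark. The fold was 2.12 in dark (1.53 to 2.93; log2 1.08 ± 0.22 SE; edgeR adjusted p = 0.0129) and 1.78 in light (1.28 to 2.49; log2 0.83 ± 0.23; adjusted p = 0.122), and it was called in dark. In dark the call was kept without the deep pair (log2 1.04, adjusted p = 0.0303), but not without the third P815-M dark replicate (log2 0.99, adjusted p = 0.0627).

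The calls of Nr1d2 and Tef depend on the term for the deep pair. Without the term, their log2 fold changes were 2.29 (Nr1d2, light), 2.43 (Nr1d2, dark) and 1.27 (Tef, dark), with adjusted p of 0.629, 0.472 and 0.604, and 3 and 2 genes of all were called in light and dark.

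Dbp, a D-box activator with a strong daily rhythm in many tissues, lies at 7:45705088-45710203 (plus strand). In dark its level was 36.0, 35.5 and, in the deep library, 29.1 CPM in P815-IFNG and 25.8, 24.5 and 20.6 CPM in P815-M. In light it was 42.6, 51.7 and, in the deep library, 35.6 CPM against 36.3, 24.9 and 27.7 CPM. The dark groups did not overlap, and in light 1 P815-M library reached above the deep library. The log2 difference was 0.65 ± 0.21 SE in light (edgeR adjusted p = 0.220) and 0.62 ± 0.22 in dark (adjusted p = 0.142), not called.

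Hlf, the third PAR bZIP gene, lies at 11:90336536-90390895 (minus strand). In dark it stood at 12.1, 17.4 and, in the deep library, 33.8 CPM in P815-IFNG, and at 5.07, 5.21 and 6.17 CPM in P815-M. In light it stood at 4.02, 10.7 and, in the deep library, 15.4 CPM against 9.86, 11.5 and 2.68 CPM. The groups were apart in dark and mixed in light. The log2 difference was 1.44 ± 0.45 SE in dark (edgeR adjusted p = 0.0925) and -0.16 ± 0.46 in light (adjusted p = 0.948). It passed the call in dark when no filter on low counts was used (adjusted p = 0.00845) and after ComBat-seq (adjusted p = 0.0265).

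The other members were not called between the lines. Nr1d1, which encodes REV-ERBα at 11:98767932-98775333 (minus strand), differed by 0.08 (log2, 95% interval -0.35 to 0.50) in light and 0.14 (-0.28 to 0.56) in dark. These intervals lie below the fold of 2 set for a call. The counts are uncertain because of the overlap with Thra and the untested strand setting given below. Nfil3 (13:52967209-52981073, minus strand) and Bhlhe40 (6:108660629-108666925, plus strand) were at -0.56 ± 0.21 and -0.60 ± 0.24 in dark, with edgeR adjusted p of 0.165 and 0.205. Ciart (3:95878503-95882251, minus strand), whose product CHRONO represses CLOCK and BMAL1, was at 0.00 in light and -0.43 in dark. Bhlhe41 (6:145858243-145865558, minus strand) was at 1.63 ± 0.67 in dark (adjusted p = 0.224), on 2 to 8 counts a library in P815-M dark.

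Counted by overlap alone, 2 members in light (Nr1d2, Tef) and 4 in dark (Nr1d2, Dbp, Tef, Hlf) had P815-IFNG libraries entirely above P815-M. Over all genes tested, 16.9% in light and 21.2% in dark had groups that did not overlap, in either direction. These counts and shares include the deep P815-IFNG libraries, which have no P815-M counterpart, so line and depth class are mixed in them. At an unadjusted p under 0.05 there were 3 members in light and 7 in dark, beside 11.1% and 16.3% of all genes. An exact permutation test of 3 against 3 libraries cannot give a two-sided p below 0.1. Groups that do not overlap give that value by construction, so it adds nothing to the overlap counts.

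**Figure D2:**
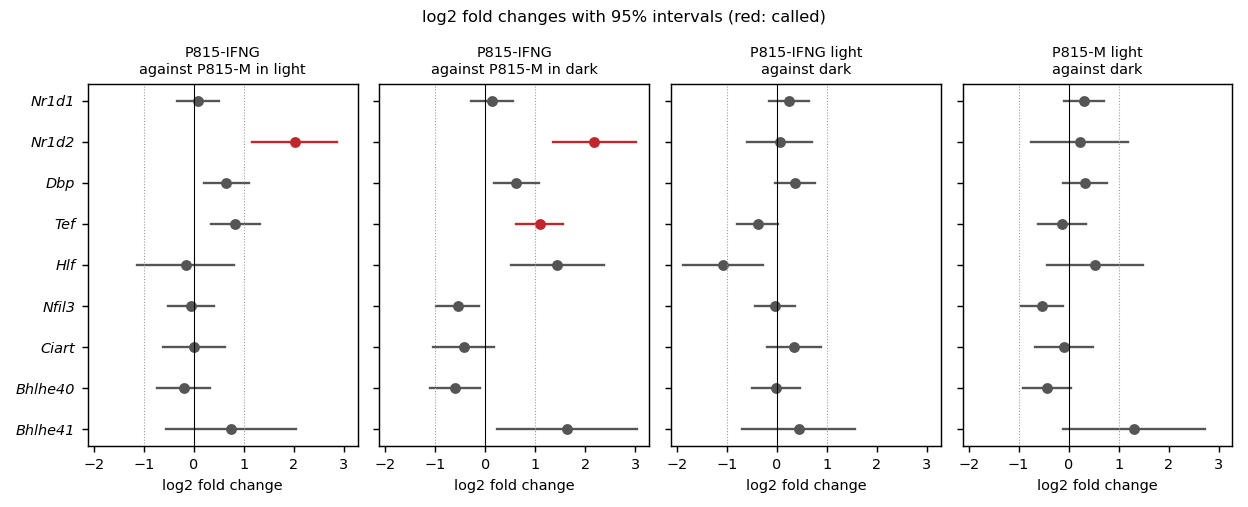
Log2 fold change of each of the 9 genes (x axis) with its 95% interval from edgeR, in 4 comparisons; red points were called. Red are Nr1d2 between the lines in light and in dark and Tef between the lines in dark, and no member is red for light against dark.

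Light against dark was then compared within each line, which asks whether levels of the members differed with blue light aimed at the tumor area. Tumors were taken once, at an hour that is not given, so a shift in the timing of the clock cannot be seen. No member was called in P815-IFNG, in P815-M, in the average of both lines or in the difference between them. Nor was any called by DESeq2. In each of these 4 comparisons 1 of the 9 members had an unadjusted p under 0.05, beside 8.34%, 12.5%, 15.8% and 5.73% of all genes. The background of calls was 0.0106% of genes in P815-IFNG, 1.03% in P815-M, 0.792% for the average and 0.016% for the difference.

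Nfil3, the repressor at D-boxes, was 1 of 2 members whose P815-M groups did not overlap. Its level was 27.0, 40.2 and 36.2 CPM in light and 52.7, 42.2 and 55.6 CPM in dark, so every light library lay below every dark library. The log2 difference was -0.54 ± 0.20 SE (edgeR adjusted p = 0.243). In P815-IFNG, where the shallower libraries held 28.2 and 35.1 CPM in light and 33.8 and 37.9 CPM in dark, the difference was -0.04 (-0.44 to 0.36). The deep pair held 100.1 and 88.2 CPM.

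Bhlhe41, the E-box repressor DEC2, was the other. It held 3.63, 6.70 and 3.58 CPM in light and 1.17, 1.04 and 3.29 CPM in dark. The log2 difference of 1.31 (-0.11 to 2.73) rests on 2 to 14 counts a library and was not called. Over all genes, 18.1% had P815-M light and dark groups that did not overlap, and 3.75% in P815-IFNG, where no member was among them. These shares cannot be set against each other, since each P815-IFNG group holds a deep library and P815-M holds none. A gene whose deep libraries both lie above or both below the rest must overlap in P815-IFNG.

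Dbp was the 1 member with an unadjusted p under 0.05 for the average of both lines, a level that 15.8% of all genes reached. It was higher in light by 0.36 (log2) in P815-IFNG and by 0.33 in P815-M, and the average was 0.34 ± 0.14 SE (edgeR adjusted p = 0.244). Within P815-IFNG it was higher in the light library of the deep pair as well (35.6 against 29.1 CPM). Nr1d1, an E-box target like Dbp, averaged 0.27 (-0.01 to 0.55).

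Hlf had opposite signs in the lines. In P815-IFNG it was lower in light by 1.07 ± 0.38 SE on the log2 scale (edgeR adjusted p = 0.429), with -1.11 in the shallower libraries and -1.13 in the deep pair. In P815-M it was higher by 0.53 (-0.44 to 1.50). The difference between the lines was -1.60 ± 0.60 (adjusted p = 0.703) and was not called. Tef was at -0.39 (-0.79 to 0.03) in P815-IFNG and -0.14 (-0.62 to 0.35) in P815-M, and Nr1d2 at 0.06 and 0.22.

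Markers of other cell types also differed between light and dark. In P815-IFNG, all 10 skeletal muscle markers were negative (median log2 fold change -5.53, 1 called lower), with summed levels of 119.6 to 143.1 CPM in light and 159.2 to 714.0 CPM in dark, and 2 of them at 0 in light. Of 10 endothelial markers 9 were negative (median -1.43, 0 called), at 41.8 to 110.6 and 54.8 to 218.5 CPM, while the medians were -0.87 for adipocyte and -0.66 for fibroblast markers (0 called). In P815-M, all 10 macrophage markers were positive (median 0.92, 2 called higher), at 1720 to 1974 CPM in light and 779.3 to 1107 CPM in dark. The P815-M medians were -0.73 for endothelial, -0.54 for skeletal muscle, 0.12 for fibroblast and -0.31 for adipocyte markers, with 1 adipocyte marker called higher. The part of these cell types in the values of Hlf, Nfil3 and the other members was not tested.

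Nr1d1 shares exon sequence with a neighbour on the other strand, and its level differed between the deep pair and the shallower libraries. The cause of this difference was not tested. In P815-IFNG light it was 111.8 and 154.2 CPM in the shallower libraries and 20.3 CPM in the deep one. In dark it was 117.9 and 119.6 CPM against 15.5 CPM. In P815-M it was 156.3, 119.7 and 112.3 CPM in light and 82.4, 126.6 and 107.0 CPM in dark, near the shallower P815-IFNG libraries. The mean of the 4 shallower P815-IFNG libraries was 7.05 times that of the deep pair. Over 12878 genes the same ratio had a median of 0.784, and the middle 50% of genes lay between 0.430 and 2.24.

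The exons of Nr1d1 overlap those of Thra, the thyroid hormone receptor α gene, by 263 bases, or 8.55% of the exon length of Nr1d1. Thra stood 3.88 times as high in the shallower P815-IFNG libraries as in the deep pair. The exons of Dbp overlap those of Sphk2, a sphingosine kinase gene, by 539 bases (18.0%), and Sphk2 had a ratio of 6.02 while Dbp had 1.28. The exons of Bhlhe40 overlap those of the antisense gene 0610040F04Rik by 118 bases (2.51%), and the ratios were 20.7 for 0610040F04Rik and 0.37 for Bhlhe40. Tef overlaps the antisense gene Gm17597 by 193 bases (2.45%), and Gm17597 held at most 1.34 CPM in any library. Bhlhe41 overlaps Gm43909, which has no row in the counts, by 1280 bases (19.0%), and its ratio was 4.13. Nr1d2, Hlf, Nfil3 and Ciart have no such neighbour in GENCODE M21, and their ratios were 0.65, 0.45, 0.36 and 0.76. The libraries were made with a stranded kit, and the strand setting used in counting was not tested, so counts of members with such a neighbour are uncertain. Members without a neighbour share this doubt, Nr1d2 and its calls included. The mt-Nd6 share set all 10 shallower libraries apart from the deep pair, whatever the gene.

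**Figure D3:**
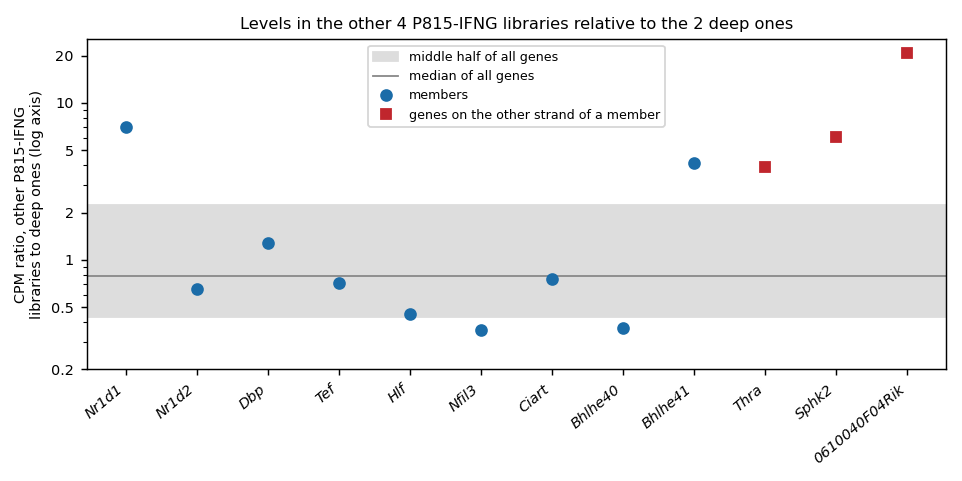
Ratio (log axis) of the mean CPM in the 4 shallower P815-IFNG libraries to that in the deep pair, for the 9 genes (circles) and for the neighbours on the other strand (squares); the line is the median of all genes and the band holds the middle 50% of them. Nr1d1 (7.05), Bhlhe41 (4.13) and the 3 neighbours drawn lie above the band, and Nfil3 (0.36) and Bhlhe40 (0.37) lie below it.

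Between the lines these neighbours gave values of their own. Thra was called higher in P815-IFNG in dark, with 142.4, 144.4 and, in the deep library, 40.3 CPM against 66.0, 65.6 and 62.1 CPM in P815-M (log2 1.19 ± 0.16 SE; edgeR adjusted p = 0.000393). Its deep library lay below the P815-M libraries, so the groups overlapped. Nr1d1 on the other strand differed by 0.14 in the same comparison. The antisense gene 0610040F04Rik was called lower in dark (log2 -1.16 ± 0.21; adjusted p = 0.00625), where its partner Bhlhe40 was at -0.60. Without the first P815-IFNG dark replicate it was at -0.90, short of the fold set for a call. Sphk2 differed by 0.05 in dark, where Dbp was at 0.62.

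The core clock genes were read beside the members. Of 16, 1 was called between the lines in light and 1 in dark, Per1 both times, beside 0.436% and 1.54% of all genes. None was called between light and dark in either line. There 0 of the 16 in P815-IFNG and 2 in P815-M had an unadjusted p under 0.05, beside 8.34% and 12.5% of all genes. Per1, a repressor of CLOCK and BMAL1 that also responds to glucocorticoids, held 148.4, 149.3 and, in the deep library, 87.6 CPM in P815-IFNG light against 55.0, 37.3 and 37.1 CPM in P815-M light. In dark it held 168.5, 169.9 and, in the deep library, 84.0 CPM against 50.4, 38.6 and 42.0 CPM. The log2 fold change was 1.83 ± 0.19 SE in light and 1.91 ± 0.19 in dark (edgeR adjusted p = 1.76e-05 and 8.09e-06). The medians over the 16 genes were 0.47 in light and 0.96 in dark, and 13 and 15 of them were positive. Without the term for the deep pair no core clock gene was called, and Per1 was at 1.57 in light and 1.69 in dark.

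**Figure D4:**
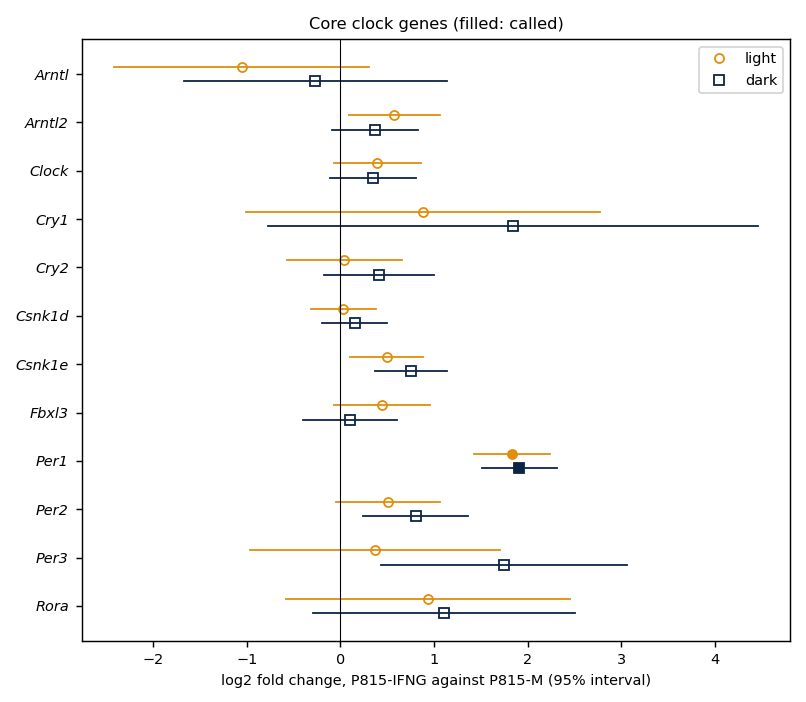
Log2 fold change of P815-IFNG against P815-M (x axis, 95% interval) for the 12 core clock genes whose SE was small enough to draw, in light (circles) and dark (squares); filled symbols were called. Per1 is the gene with filled symbols, at 1.83 and 1.91, and the interval of Arntl spans 0 in both.

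Of 13 output genes known to follow the clock through E-boxes, D-boxes or REV-ERB, 1 was called between the lines, Pfkfb3 in dark. Over all genes, 0.436% were called in light and 1.54% in dark. Pfkfb3 encodes a bifunctional enzyme that stimulates glycolysis, and its log2 fold change was 1.22 ± 0.24 SE (edgeR adjusted p = 0.00962). The call was lost without the first P815-IFNG dark replicate (log2 0.93; adjusted p = 0.0809). The median of this list was 0.20 in light and 0.24 in dark. No gene of it was called for light against dark, with 2 of 13 at an unadjusted p under 0.05 in each line, beside 8.34% and 12.5% of all genes.

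Of 14 glucocorticoid response genes, a list that also holds Per1, 3 were called higher in P815-IFNG in light and 4 in dark, and none lower. Over all genes, 0.218% were called higher in light and 1.12% in dark. The list was chosen with earlier results of these data known, so its counts carry no test. In light the called genes of the list were Per1, Tsc22d3 (log2 1.45), which encodes GILZ, and Fkbp5 (1.05), a co-chaperone of the glucocorticoid receptor. Fkbp5 lost its call without the second P815-IFNG light (log2 0.86), the second P815-M light or the third P815-M light replicate (adjusted p up to 0.0886). In dark they were Per1, Tsc22d3 (1.16), Klf9 (1.96) and Zbtb16. Zbtb16, which encodes PLZF, held 14, 42 and, in the deep library, 20 counts in P815-IFNG dark and 0, 1 and 0 counts in P815-M dark, and its deep library at 0.45 CPM lay below 1 P815-M library at 0.52 CPM. Zbtb16 lost its call without the second P815-IFNG dark or the third P815-M dark replicate (adjusted p up to 0.102). The medians of the list were 0.76 in light and 0.85 in dark.

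Markers of other cell types also differed between the lines. All 10 adipocyte markers had positive log2 fold changes for P815-IFNG against P815-M, with a median log2 fold change of 2.91 in light (0 called) and 3.21 in dark (2 called higher). Their summed level was 63.9 to 165.3 CPM in P815-IFNG light, 89.3 to 112.5 in P815-M light, 42.4 to 325.4 in P815-IFNG dark and 36.7 to 51.9 in P815-M dark, where 1 marker was at 0. In dark, 9 of 10 macrophage markers were positive (median 1.10, 3 called), with summed levels of 741.9 to 1982 CPM in P815-IFNG and 779.3 to 1107 CPM in P815-M. All 10 fibroblast markers were positive in dark (median 0.85, 2 called), at 4819 to 12612 CPM in P815-IFNG and 4837 to 5611 CPM in P815-M. All 10 endothelial markers were positive in dark as well (median 1.03, 0 called), at 54.8 to 218.5 and 59.7 to 173.5 CPM. In light the medians of these 3 lists were 0.10, -0.03 and 0.19. Skeletal muscle markers had a median of -4.03 in light (1 called lower), where 2 of them were at 0 in P815-IFNG light, and 0.78 in dark (1 called higher), and T cell markers 0.05 and 0.66 (0 called). The part of these cell types in the values of Nr1d2, Tef and the other members was not tested.

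The label of mastocytoma cells was checked on mast cell genes. Of 10 mast cell markers 9 were tested, and together they held 1850 to 2822 CPM in the shallower libraries, and 10191 and 7867 CPM in the deep light and deep dark libraries. Between the lines their median log2 fold change was -0.28 in light and -0.35 in dark, with 0 called.

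Likeness to the members was measured as Pearson's r of log2 CPM over the 10 shallower libraries, among 11997 genes with a mean of at least 5 CPM. These values are a description over libraries that share group, depth and batch. The genes most like Nr1d2 were Frmd4a (r = 0.98), Fto (0.97) and Hspa14 (0.95). Those most like Tef were Copz1 (0.96), Cdc123 (0.96) and Txn2 (0.95). Per1 was the core clock gene among the 50 nearest of both Nr1d2 and Tef, and no other member had a core clock gene among its 50 nearest. No member was among the 50 nearest of another. For Dbp the nearest genes were Vsig2 (0.93), Nol9 (0.92) and Dyrk3 (0.91), and for Nr1d1 they were 4930533K18Rik (0.94), Gm16323 (0.93) and E130114P18Rik (0.92). Hlf was most like Traf6 (0.92), Nfil3 like Prkcsh (0.94), Ciart like Cir1 (0.92), Bhlhe40 like Etv5 (0.94) and Bhlhe41 like Fam102b (0.97).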

How the data were processed

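The authors trimmed reads with fastp, aligned them with STAR 2.7.9a to mm10 extended by the knock-in sequences, and deposited the raw counts per symbol that HTSeq 0.13.5 gave with default parameters (versions from the submitters' processing notes). The annotation release is not given in the sources used here. These counts precede the study's mitochondrial filter and its ComBat-seq step. Of 32288 rows, 13 are mitochondrial and were dropped, and a gene was tested if it had 10 or more counts in all. The 40 rows that repeat the symbol of an earlier row were kept as separate rows, and no member is among them. The labels number the libraries of a group as biological replicates, and the study's captions give 3 mice in each group.

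Counts were fitted with R 4.3.3 and edgeR 4.0.16: TMM scaling, 1 mean per group over all 12 libraries, a term for the 2 libraries above 10000000 counts, the quasi-likelihood test and Benjamini-Hochberg adjustment over all genes. The deep pair was set as a batch from its totals, since the study's methods name no batches. Calls used the study's thresholds, an adjusted p no higher than 0.05 and a log2 fold change of 1 or more in either direction. Group levels were also compared with two-sided exact permutation tests on log2 CPM (prior count 2). Depth sets the precision: 3 counts, the floor used here, equal 1.02 to 1.36 CPM of the total in the shallower libraries. Intervals are 95% confidence intervals of the fitted difference between group means, based on the fitted spread between libraries.

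Samples were grouped by the labels. Illumination lasted 6 days by the labels, while the study's methods give another duration. Deviations from group means correlated between same-numbered P815-IFNG light and dark libraries (0.81 to 0.95), where number 3 is the deep pair in both. Between P815-M light and dark they were -0.03, 0.02 and -0.32, and for the difference of replicates 1 and 2 in P815-IFNG the correlation was 0.07, so the numbers were not taken as pairs. The alternatives were DESeq2 1.42.0, its size factors, filterByExpr, no filter, no batch term, the 10 shallower libraries, ComBat-seq (sva 3.50.0), the replicate block with and without the batch term, mitochondrial genes kept, the compared libraries alone, each library left out in turn, and calls with no minimum fold change.

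All 9 members are named in every comparison. Core clock genes, clock targets and glucocorticoid response genes are given as counts, with those called named, and neighbours are genes whose exons overlap a member on the other strand by at least 100 bases in GENCODE M21. For likeness, the 3 nearest genes of a member were taken, of which the nearest alone is given for 5 members. The members and lists were chosen with earlier results of these data known. The code was tested on counts simulated for P815-M light against dark, with changes set in better counted genes. Of 100 changes of 2-fold, which lie at the fold set for a call, 46% were called. Of 100 changes of 4-fold, 100% were called, and 20 unchanged genes were called out of 18357 genes tested.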

Additional observations from a re-analysis of the deposited data

How the results depend on the processing

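The count of members called between the lines was 1 in light and 2 in dark. It was 0 in both without the batch term and with the replicate block without the batch term, and 0 in light with the 10 shallower libraries. With a library left out it ranged from 0 to 1 in light, being 0 without the third P815-IFNG light, the third P815-IFNG dark or any P815-M light replicate, and from 1 to 2 in dark, being 1 without the third P815-M dark replicate. Nr1d2 in light then ranged from 1.80 to 2.27 on the log2 scale (adjusted p up to 0.135). The replicate block with the batch term changed no call of a member (Nr1d2 2.05 in light and 2.19 in dark, Tef 1.07 in dark), while calls over all genes for P815-IFNG light against dark went from 2 to 62. With the replicate block without the batch term, Nr1d2 was at 2.25 in light and 2.40 in dark. Hlf in dark was called with no filter (1.45), after ComBat-seq (1.37) and with P815-M light replicate 3 left out (1.44). Of 1278 alternative values of members, 1200 kept their sign and side of the threshold and 62 changed sign, all of them members not called.

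Sign changes for P815-IFNG light against dark were Nr1d2 with the 10 libraries (-0.20) and ComBat-seq (-0.0092); Nfil3 with DESeq2 (0.026), its size factors (0.015) and no batch term (0.036); and Bhlhe40 with DESeq2 (0.0073), size factors (0.018), no batch term (0.18) and the replicate block without it (0.010). Averaged over the lines, Nr1d2 was at -0.00065 with the 10 libraries. For the lines in light, without the batch term and with the replicate block without it, Nr1d1 was at -0.45 and -0.81, Hlf 0.36 and 0.17, Nfil3 0.67 and 0.46 and Bhlhe40 0.56 and 0.35, and Bhlhe41 was at -0.056 with that block. With the block and the batch term Nfil3 was at 0.0092 and Ciart at -0.029, and Ciart was at -0.017 with DESeq2, -0.011 with size factors and -0.0026 with no filter. In dark, Nr1d1 was at -0.32 and -0.75, and Nfil3 at 0.094 with no batch term. The cause was not tested.

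With a library left out, sign changes gave these log2 ranges. For P815-IFNG light against dark, Nr1d2 -0.21 to 0.23, Nfil3 -0.20 to 0.075 and Bhlhe40 -0.39 to 0.20. For P815-M light against dark, Nr1d2 -0.075 to 0.67 and Tef -0.23 to 0.0024. For the average of the lines, Nr1d2 -0.0072 to 0.36 and Ciart -0.011 to 0.19. For the difference between the lines in the light effect, Nr1d1 -0.21 to 0.11, Nr1d2 -0.61 to 0.14 and Dbp -0.077 to 0.20. For the lines in light, Nr1d1 -0.062 to 0.28, Hlf -0.63 to 0.21, Nfil3 -0.20 to 0.12, Ciart -0.37 to 0.25 and Bhlhe40 -0.37 to 0.070. For the lines in dark, Nr1d1 -0.012 to 0.29.

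Over all genes, calls between the lines numbered 82 in light and 290 in dark, against 245 and 640 with no filter, 252 and 544 with ComBat-seq, 39 and 371 with the 10 libraries, 140 and 266 with the compared libraries alone, and 3 and 2 without the batch term. For light against dark, calls numbered 2 in P815-IFNG and 194 in P815-M, against 58 and 293 with DESeq2, 211 and 429 with no filter, 150 and 247 with ComBat-seq, and 0 and 0 without the batch term. The compared libraries alone gave no value for the average over the lines or the difference between them. The depth of the shallower libraries limits Nr1d2, Hlf and Bhlhe41, which had 2 to 24 counts in P815-M libraries.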

Other observations

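Some pairs of members moved together or against each other over the 10 shallower libraries, and these pairs were picked after their values were seen. Nfil3 and Bhlhe40 correlated positively (r = 0.70), and both correlated negatively with Dbp (-0.75 and -0.76) and with Nr1d1 (-0.64 and -0.77). Within the 6 P815-M libraries the same signs were found, with 0.76 for Nfil3 and Bhlhe40, -0.90 for Dbp and Nfil3, -0.57 for Dbp and Bhlhe40, -0.83 for Nr1d1 and Nfil3 and -0.83 for Nr1d1 and Bhlhe40. Nr1d1 and Dbp correlated at 0.55 over the 10 libraries and at 0.57 within P815-M. Nr1d2 and Tef, by contrast, correlated at 0.80 over the 10 libraries and at -0.26 within P815-M. These are descriptions over few libraries of 4 groups and carry no test.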
